A study of Mus musculus with 41 samples.

Results

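The Ly6 surface antigen genes followed here were Ly6f, Ly6i, Ly6a, Ly6e, Ly6d, Ly6k and Ly6h, 7 of the 27962 gene names on the array. They were taken by gene name and were read by 8 of its 41174 probes, since Ly6h had a pair of probes. The family was selected on the difference in log2 ratio between exposed and control lungs, so the lung exposure values are given below as a description, with no test on any of the 7 genes. Female C57BL/6 mice (C57BL/6BomTac in the study's methods) had inhaled surface-coated titanium dioxide nanoparticles (nanoTiO2, 40 mg/m3 in the sample labels) or filtered air for 1 h a day over 11 days. They were killed 5 days after the last exposure. The mice had been time-mated and had not conceived, and the mRNA labels give their age only as the equivalent of GD4. Lung arrays came from 7 exposed and 6 control mice, and liver arrays from 7 exposed and 8 control mice. A small random part of each frozen organ was used, so that fewer cells of a type and less RNA per cell cannot be told apart.

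Ly6 proteins are small cysteine-rich proteins that mostly sit on the outer face of the cell membrane through a glycosylphosphatidylinositol anchor. Ly6a, also called Sca-1, is a widely used marker of blood stem cells and is found on endothelium and activated lymphocytes. Ly6a and Ly6e are known to respond to interferon, Ly6d marks early B lineage cells and squamous epithelium, Ly6h is mainly known from brain and Ly6k from testis. Ly6f and Ly6i are less studied neighbours of Ly6a in the same gene cluster.

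The probes are shown because every value below is the signal of 1 such oligonucleotide, and related genes of a cluster could in principle share a probe. All 8 were placed on chromosome 15 of the mouse build mm7 by the array's annotation, with no exon or transcript part given. Per probe the first 30 of 60 bases are printed 5′ to 3′ for the genes on which the results turn, in lower case throughout since no part is singled out.
Ly6f, plus strand, chr15:75354580-75354640: tttcaaatatgtacttcctagaatgccatt
Ly6i, minus strand, chr15:75063588-75063647: aacttccaaggttttatctgtgcagccctt
Ly6a, minus strand, chr15:75075673-75075732: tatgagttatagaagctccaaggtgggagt
Ly6e, plus strand, chr15:75039587-75039646: gtatatctgtgtgctcagtgtatccctgtg
Ly6d, minus strand, chr15:74842671-74842730: caggacaggaagatgtggcttgtgtcccag
Ly6k was read at chr15:74877649-74877708, and the probes of Ly6h lay at chr15:75647848-75648148 and chr15:75647772-75647831. No member probe shared a run of 20 bases with any of the other probes of known sequence on either strand, out of 41174 searched. Among these probes and the 2 probes named Ly6c, the longest shared run was 10 bases, between Ly6a and Ly6c. Probes were compared with probes and not with transcripts, so binding of a probe to the RNA of a related gene was not tested. Accessions of all 8 probes matched RefSeq symbols identical to the array's names. In the RefSeq table of assembly GRCm38.p6 the genes followed each other as Ly6d, Ly6k, Ly6e, Ly6i, Ly6a, Ly6f and Ly6h, the order that the mm7 positions also gave.

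Each value is the log2 ratio of mouse RNA, labelled with Cy5, to a universal reference RNA pooled from 11 mouse cell lines, labelled with Cy3, after background correction and loess normalization within the array. The reference signal belongs to the probe, so levels were compared between mice within a probe and never between probes. Between 55.1% and 70.5% of the probe spots on an array were well above background in Cy5. Exposed mice occupied the first positions and controls the last positions of each slide, so position and exposure cannot be told apart. Lung and liver arrays were on different slides and were read with different scanner software, so tissue cannot be told apart from these either. No member spot was saturated.

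Ly6f was the member with the large difference between exposed and control lung. Its log2 ratio was 2.23 at the lowest, 2.64 at the median and 3.05 at the highest of 7 exposed lungs. In 6 control lungs it was 0.20, 0.31 and 0.39. All exposed lungs were above all controls, with a wide gap between the groups. The means were 2.63 ± 0.28 (SD, n = 7) and 0.30 ± 0.07 (SD, n = 6), a log2 difference of 2.32 (SE 0.11), or 5.01-fold. In raw Cy5 intensity the exposed lungs gave a median of 528 (range 379 to 666) and the controls a median of 89.5 (range 85 to 104). Ly6f was well above background on all 13 lung arrays.

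**Figure D1:**
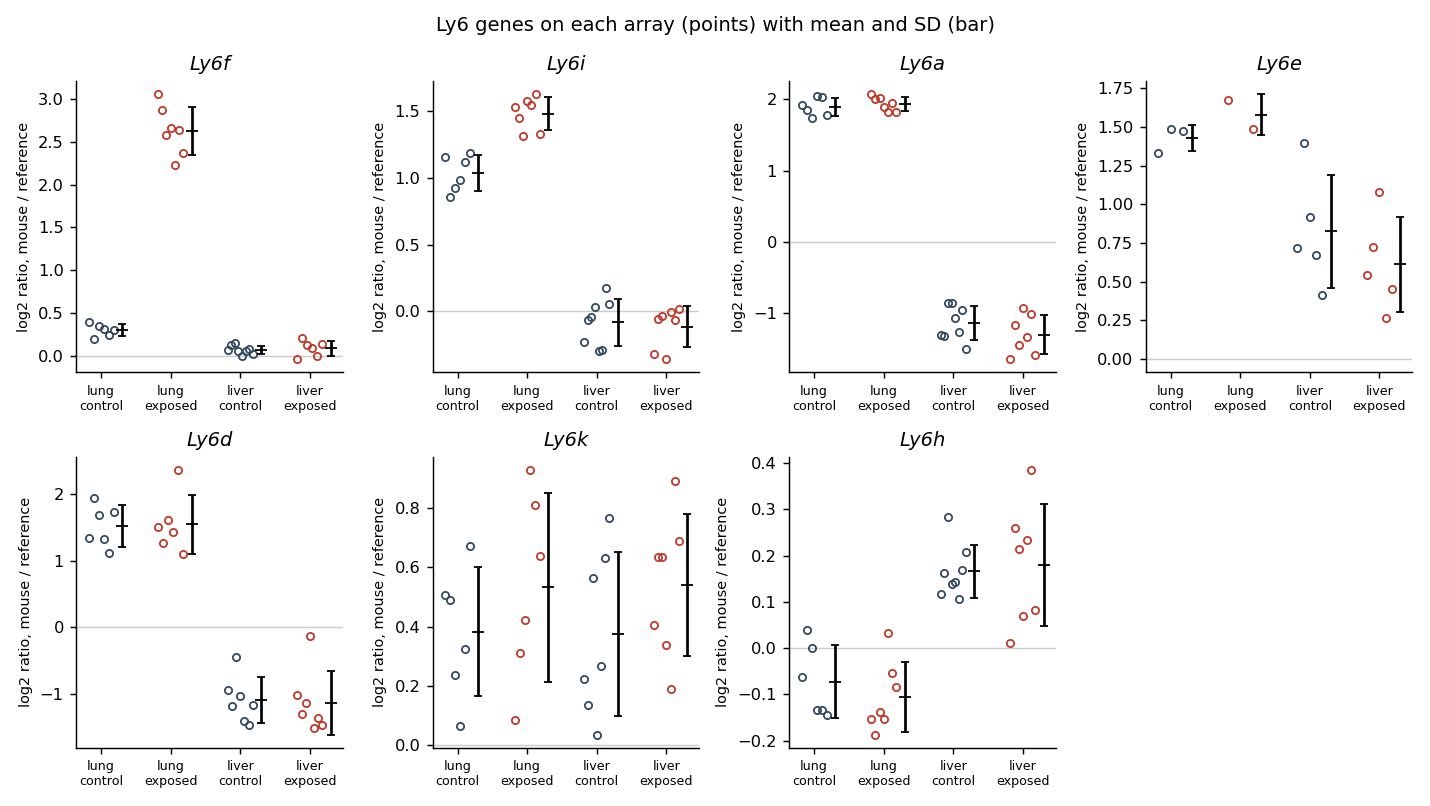
Log2 ratio of mouse RNA over reference RNA for each of the 7 Ly6 genes (vertical axes, scaled per gene) in control and exposed lung and liver. Each point is 1 array, and the bar beside it gives the mean and SD. Ly6f lies between 2.23 and 3.05 in exposed lungs and at or below 0.39 elsewhere, while Ly6a and Ly6d separate lung from liver with no visible shift with exposure.

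The size of the Ly6f difference depended on the processing, although its direction did not. Within the 3 slides that held both groups it was 2.66, 2.25 and 2.17. Leaving out each lung in turn gave 2.25 to 2.39. Without background correction the difference was 2.30. With the background model fitted on every spot, including those marked as outliers, it was 1.55, or 2.93-fold. The scanner software's processed signals gave 1.95 and the authors' log2 ratios gave 2.10. The offset of 50 added in background correction draws dim signals together, so a fold change against the dim control lungs is on that scale. Hepatocyte markers stood apart in 3 exposed lungs (mice 1, 13 and 19), where the mean over 6 markers was 2.09, 1.27 and 1.43, against 0.24 to 0.72 in the 6 control lungs. Without these lungs Ly6f was 2.61 ± 0.21 (SD, n = 4), a difference of 2.31. The neutrophil list (11 genes) spanned 0.76 to 1.75 in exposed and 0.99 to 1.68 in control lungs, and the monocyte list (6 genes) 1.71 to 2.17 and 1.61 to 2.12. The alveolar macrophage list (9 genes) spanned 2.78 to 3.21 and 3.06 to 3.36. The means of each of these lists overlapped between the groups. By limma 1 of the 9 alveolar macrophage genes was called higher in exposed lungs and 2 lower, where 0.202% of all probes were called. Their differences ran from -0.70 to 0.57. Of the neutrophil and monocyte lists 0 genes were called. In lavage fluid the study reported a higher share of neutrophils in exposed mice. The part of any of these cells in the Ly6f value was not tested.

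**Figure D2:**
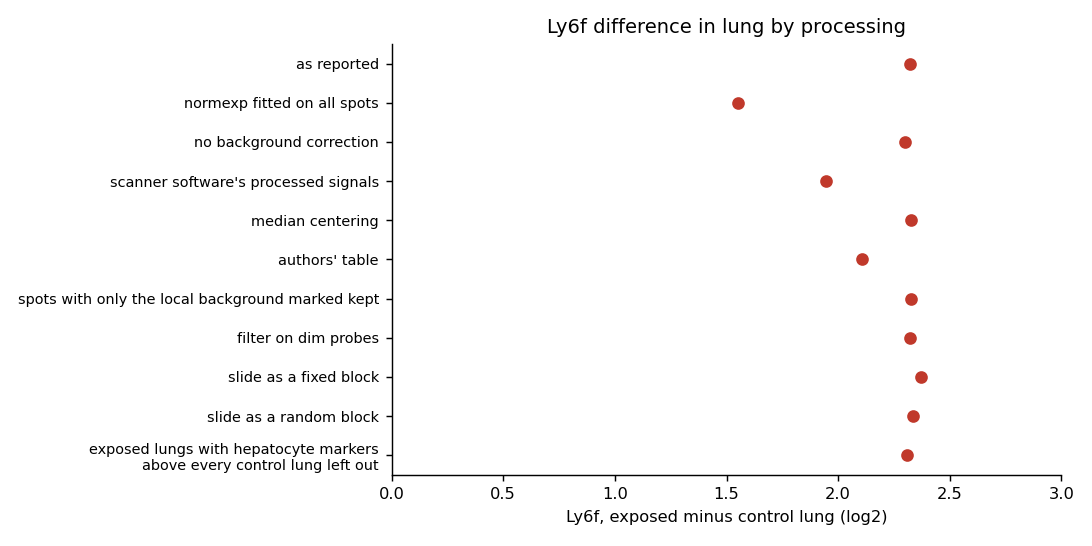
Ly6f log2 difference between exposed and control lungs (horizontal axis) under each processing setting (rows), each point being the difference of group means. The values run from 1.55, with the background model fitted on all spots, to 2.37, with slide as a fixed block.

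Ly6i, the neighbour of Ly6a, was also higher in exposed lungs, by much less. Its log2 ratio ran from 1.31 over a median of 1.53 to 1.63 in exposed lungs and from 0.86 over 1.05 to 1.18 in controls. The groups did not overlap. The means of 1.48 ± 0.12 (SD, n = 7) and 1.04 ± 0.13 (SD, n = 6) differed by 0.44 (SE 0.07), or 1.36-fold. Within slides the difference was 0.48, 0.36 and 0.41. With the background model fitted on all spots it was 0.14.

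Ly6e was slightly higher in exposed lungs on few usable arrays. Its local background was marked as an outlier on 5 exposed and 3 control lung arrays, and those spots were left out. The remaining exposed lungs gave 1.48 and 1.67 and the remaining 3 controls 1.33, 1.47 and 1.48. When the marked spots were kept with the array's median background, an alternative chosen after seeing the data, exposed lungs spanned 1.47 to 1.74 and controls 1.34 to 1.57, so that the groups overlapped and 4 of 7 exposed lungs were above every control. The difference was 0.15 (SE 0.09) in the first case and 0.17 (SE 0.06) in the second. With median centering in place of loess it was -0.00058.

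Ly6a, Ly6d, Ly6k and Ly6h had lung differences within the spread between mice as processed here. With the scanner's processed signals, however, Ly6k differed by 0.51 (1.42-fold) and Ly6h by -0.47. Ly6a was 1.94 ± 0.10 (SD, n = 7) against 1.90 ± 0.13 (SD, n = 6). Ly6d was 1.54 ± 0.44 (SD, n = 6, the spot of mouse 20 being left out) against 1.52 ± 0.31 (SD, n = 6). Exposed mouse 19 had the highest Ly6d at 2.35, and its B cell list (6 genes) was also the highest of the lungs at 1.51, as was its basal epithelium list (4 genes) at 1.00. On the basal epithelium list exposed mouse 13 and control mouse 24 stood at 0.97 and 0.83, with Ly6d at 1.42 and 1.34. Control mouse 26, with the next highest Ly6d at 1.93, had 0.83 on the B cell and -0.20 on the basal epithelium list. The part of those cells in the Ly6d value was not tested. Ly6k was 0.53 ± 0.32 (SD, n = 6, without the marked spot of mouse 7) against 0.38 ± 0.22 (SD, n = 6). For Ly6h the brighter probe gave -0.10 ± 0.08 (SD, n = 7) against -0.07 ± 0.08 (SD, n = 6), and it was well above background on 1 exposed and 2 control arrays. The second Ly6h probe was not well above background on any of the 28 arrays, and no fold is given for it. These groups overlapped for each of the 4 genes. Groups did not overlap for 3 of 8 probes (Ly6f, Ly6i and Ly6e), against 0.598% of 41155 probes. Ly6e is counted there on 2 exposed and 3 control arrays, and its groups overlapped without background correction or with marked spots kept. Since the lung contrast chose the family, nothing is read from this count.

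Among the exposed lungs, the level of Ly6f varied from mouse to mouse, and that variation was set against each other member with enough arrays. Ly6a rose with Ly6f over 7 exposed lungs (Pearson r = 0.895, exact permutation p = 0.0091, adjusted over 5 relations 0.046). By rank the relation did not pass (Spearman rho = 0.75, exact permutation p = 0.066, adjusted 0.17). Without the 2 lungs farthest from the Ly6f median, r was 0.75 over 5 lungs. Leaving out mouse 1, 7, 13, 19 or 23 took the adjusted exact permutation p to between 0.058 and 0.10, as did no background correction (0.061), and with median centering r was 0.41 (adjusted exact permutation p = 0.84). Ly6h and Ly6k ran the other way, with r of -0.78 over 7 lungs and -0.81 over 6 lungs, neither passing adjustment (both adjusted exact permutation p = 0.074). Ly6h did pass with processed signals (adjusted exact permutation p = 0.046) and without the lung of mouse 20 (0.039), and Ly6k with marked spots kept (r = -0.84, adjusted exact permutation p = 0.040). For Ly6i r was 0.20 over 7 lungs and for Ly6d -0.44 over 6 lungs (adjusted exact permutation p = 0.66 and 0.50). With the background model fitted on all spots, r for Ly6i was 0.971 (adjusted exact permutation p = 0.033) and for Ly6a 0.823, so the order of these genes depended on that setting. Over the 6 control lungs r between Ly6f and Ly6a was -0.13, given as a description, and the difference between the groups was not tested. A slide held at most 2 exposed lungs, too few for a value within slides. All values of a mouse come from 1 array and share its normalization.

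**Figure D3:**
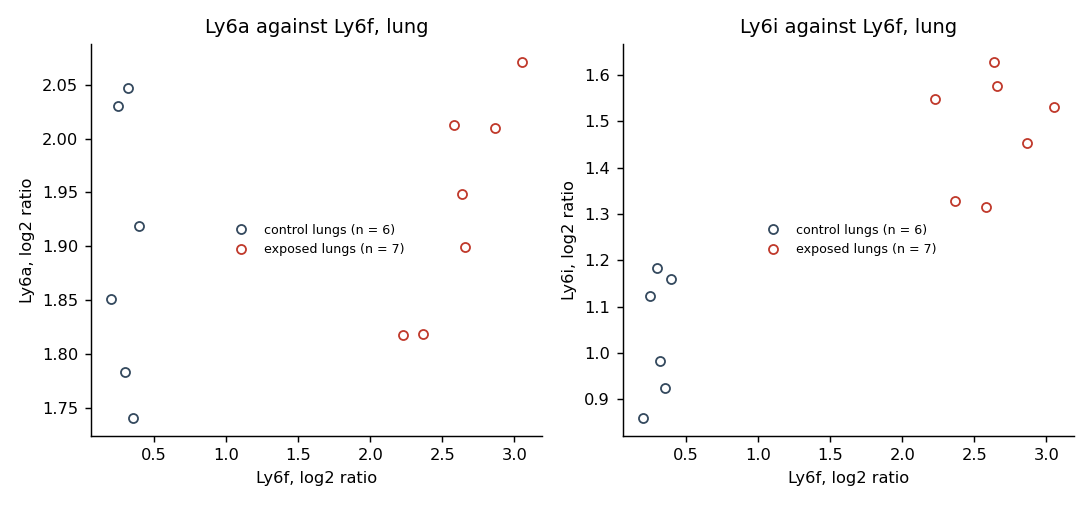
Log2 ratios of Ly6a (left) and Ly6i (right) on the vertical axes against Ly6f on the horizontal axes in lung, each point 1 mouse. Exposed lungs (n = 7) lie apart from control lungs (n = 6) along the Ly6f axis in both panels. Ly6a increases with Ly6f among the exposed lungs (r = 0.895) while Ly6i has r = 0.20 as processed here and 0.971 with the background model fitted on all spots.

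Across all 13 lung arrays the genes whose log2 ratios ran most like those of Ly6f were Noxo1 (r = 0.990), Vnn1 (0.982), Lcn2 (0.979), Lemd1 (0.957) and Xtrp3s1 (0.956), out of 13328 genes well above background on most lung arrays. Lemd1 was well above background on 7 of 7 exposed and 0 of 6 control lungs, so it entered only through the exposed lungs. These r values are largely the gap between exposed and control lungs and are given as a description. Noxo1, an organizer of NADPH oxidase, averaged 2.12 with an SD of 0.20 over the exposed lungs, and the controls averaged 0.54 with an SD of 0.12. Lcn2, the iron-siderophore binding protein lipocalin 2, averaged 3.06 with an SD of 0.17 when exposed and 1.35 with an SD of 0.11 in controls. Ly6i ranked 26 by this measure (r = 0.886) and Ly6a 2818 (r = 0.294). After each group's mean had been taken away, the genes nearest to Ly6f were Cxcl5 (r = 0.899), Tyki (0.875), NAP112463-1 (0.872), Gm1960 (0.869) and Nedd9 (0.861). These are the highest of 13328 values, were not tested and are likewise a description. Cxcl5, a chemokine that draws neutrophils, ranged from -2.52 to 1.01 in exposed lungs and from -3.67 to -2.86 in controls. It was well above background on 7 of 7 exposed but only 2 of 6 control lungs, and Gm1960 on 5 and 2. By this measure Ly6a ranked 668 (r = 0.545) and Ly6i 3734 (r = 0.196).

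Exposure left no called difference in any member in the liver, whose arrays had no part in choosing the family. Ly6f was at -0.03 at the lowest, 0.12 at the median and 0.21 at the highest of 6 exposed livers (the marked spot of mouse 20 being left out). In 8 control livers it was 0.00, 0.07 and 0.15. The groups overlapped throughout, and the spot was well above background on 2 of 7 exposed and 3 of 8 control arrays. The difference was 0.02 (95% interval -0.08 to 0.11, limma adjusted p = 1.00, exact permutation p = 0.65). Ly6i differed by -0.03 (95% interval -0.20 to 0.14) and Ly6a by -0.16 (95% interval -0.42 to 0.10). For Ly6d the difference was -0.04 (95% interval -0.46 to 0.37), for Ly6k 0.17 (95% interval -0.10 to 0.43) and for Ly6h 0.01 (95% interval -0.10 to 0.13). Ly6e, with the spots of 2 exposed and 3 control livers left out, differed by -0.21 (95% interval -0.61 to 0.19), and by -0.19 with these spots kept. By limma with Benjamini-Hochberg adjustment 0 of 8 probes were called, as were 0% of 41143 probes, and none of the 8 reached an unadjusted p of 0.05, against 2.53% of probes. The exact permutation p over arrays was 0.24 or more for each of the 8. A rise of the size seen for Ly6i in lung, 0.44, lay above the liver intervals of all 8 probes. A fall of that size lay within those of Ly6d and Ly6e only. The offset draws dim signals together, so the intervals of Ly6f, Ly6k and both Ly6h probes cannot exclude a change in RNA of that size. Groups did not overlap for 0 of 8, against 0.173% of probes.

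**Figure D4:**
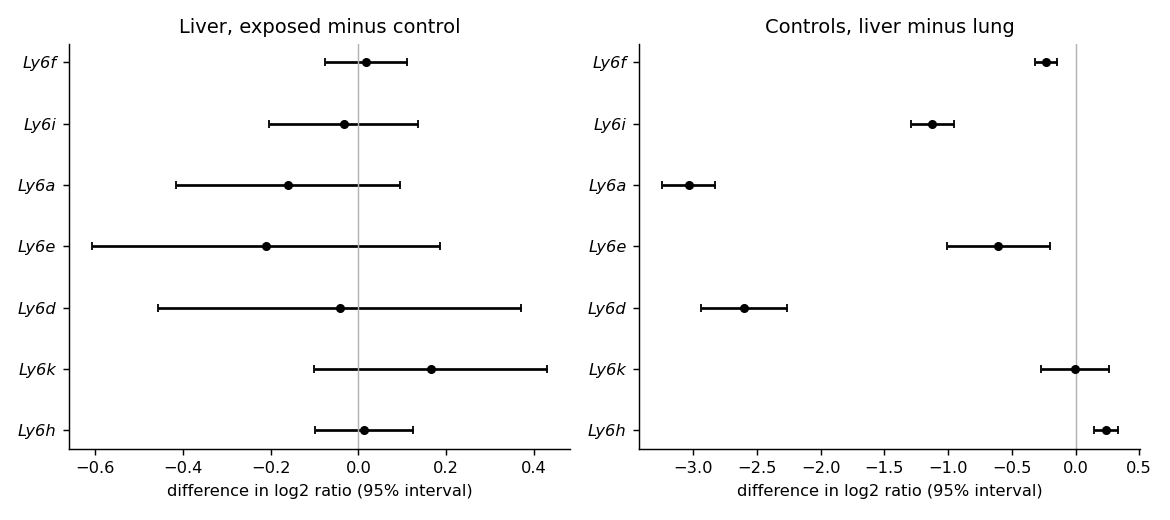
Difference in log2 ratio with its 95% interval (horizontal axes) for the 7 Ly6 genes, on the left between exposed and control livers and on the right between control livers and control lungs. Every interval on the left includes 0, while on the right Ly6a (-3.04) and Ly6d (-2.60) lie farthest from 0 and Ly6k (-0.01) includes it.

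Control liver and control lung were compared next, and 6 of 8 probes were called. That count includes Ly6f, whose difference is a description only, as set out below. The control lungs also enter the exposure difference that chose the family, so this contrast is not fully independent of that choice. Ly6a was between -1.50 and -0.85 (median -1.17) in 8 control livers and between 1.74 and 2.05 (median 1.89) in 6 control lungs. Every liver was far below every lung, and the lung level was 8.20-fold higher (log2 difference -3.04, SE 0.10, limma adjusted p = 4.0e-14, exact permutation p = 0.00033, the smallest these splits can give). This fit and the permutations between organs took the arrays as independent, although 6 control mouse numbers occur in both organs. The permutation p may therefore overstate the evidence. Ly6d ran from -1.46 to -0.44 (median -1.15) in 7 livers and from 1.11 to 1.93 (median 1.51) in 6 lungs. It was 6.07-fold higher in lung with no overlap (log2 difference -2.60, SE 0.16, limma adjusted p = 4.9e-10). Ly6i was between -0.30 and 0.18 in liver and between 0.86 and 1.18 in lung, 2.18-fold higher in lung (limma adjusted p = 1.7e-09). For these 3 genes the gap between organs was larger than the spread between mice.

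Ly6f, by contrast, was low in both unexposed organs. Its 8 control livers lay between 0.00 and 0.15 and its 6 control lungs between 0.20 and 0.39, again without overlap. The liver spot was well above background on 3 of 8 control arrays, and raw Cy5 intensity ran the other way, with a median of 101 in control liver and 89.5 in control lung. The fitted log2 difference was -0.23, and -2.14 with the scanner's processed signals. No fold is given, and since the low control lung level is part of what chose Ly6f, its difference is a description only.

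The remaining members gave smaller tissue differences. Ly6e was lower in liver, at 0.82 ± 0.37 (SD, n = 5) against 1.43 ± 0.09 (SD, n = 3), by 0.61 (SE 0.18, limma adjusted p = 0.014). The groups overlapped, and the exact permutation p was 0.071 over 56 splits. With the marked spots kept, all 8 livers were below all 6 lungs (difference -0.67, limma adjusted p = 8.7e-05), while median centering gave 0.09 with no call (limma adjusted p = 0.82). Control mouse 32 had the highest Ly6e of the livers used (1.39), and its neutrophil list stood at 1.63 against -0.17 to 0.21 in the other 7 control livers. Its alveolar macrophage list stood apart as well, at 1.52 against 0.13 to 0.41, and its Kupffer cell list was the highest of the control livers (4.60). The part of those cells in the Ly6e value was not tested. Ly6h was higher in liver on its brighter probe, at 0.17 ± 0.06 (SD, n = 8) against -0.07 ± 0.08 (SD, n = 6), without overlap (difference 0.24, limma adjusted p = 0.00014), and this probe was well above background on all 8 control livers but on 2 of 6 control lungs. The second Ly6h probe gave 0.09 and 0.10, both not well above background. Ly6k was 0.38 ± 0.28 (SD, n = 7) in liver and 0.38 ± 0.22 (SD, n = 6) in lung, a difference of -0.01 (95% interval -0.27 to 0.26). The scanner software's processed signals gave -0.94 for Ly6k, with a call (limma adjusted p = 0.0040). Of the 8 probes 6 were called, 5 of them higher in lung, where 57.8% of 41149 probes were called in either direction and 29.3% were called higher in lung. Groups did not overlap for 5 of 8, against 41.3% of probes. Both counts include Ly6f, whose control lung level was part of the selection, so they are not a test of the family.

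Lung and liver arrays with the same mouse number were taken as the same animal, which is an assumption. In mice with both organs the lung values of Ly6f, Ly6a, Ly6d and Ly6i stood above the liver values. For Ly6f the gap was 2.23 to 3.08 in 5 exposed mice and 0.07 to 0.32 in 6 control mice. For Ly6a it was 2.82 to 3.71 in 6 exposed and 2.60 to 3.22 in 6 control mice. Ly6i had gaps of 1.31 to 1.93 and 0.93 to 1.47 in the same mice. For Ly6d the gap was 1.55 to 3.86 in 5 exposed and 2.12 to 3.18 in 6 control mice. Ly6h on its brighter probe was lower in lung than in liver in every such mouse, and Ly6k went either way. Ly6f alone of these genes had gaps that did not overlap between exposed and control mice, a contrast that again rests on the exposed lungs.

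Other genes of the Ly6/uPAR family, from a list of 42 of which 21 were on the array, gave no call after exposure in either organ. In lung 0 of 21 were called, where 0.202% of all probes were. The 21 differences there had a median of 0.02, against 0.00147 over all probes, and ran from -0.18 to 0.15. The widest were Ly6c (0.15) and Lypd2 (0.11) upwards and Gpihbp1 (-0.18) and Lypd3 (-0.10) downwards. By limma 1 of 21 reached an unadjusted p of 0.05 in lung, where 7.13% of all probes did, and 0 of 21 in liver, where differences ran from -0.08 to 0.10. The probe of Ly6c, an antigen of inflammatory monocytes and endothelium, averaged 2.89 over the 5 exposed lungs and 2.74 over the 3 controls whose spots were not marked, each with an SD of 0.135, and these groups overlapped. Between the unexposed organs 16 of 21 were called, where 57.8% of all probes were. Of these, 8 were higher in lung and 8 higher in liver, against 29.3% and 28.5% of all probes. Lower in liver were most of all Slurp1 (-4.04), Lypd2 (-3.26) and Ly6c (-2.36), and higher were Cd59a (2.12), Cd59b (1.25), both inhibitors of complement, and Spaca4 (0.32). The adjusted p from limma was 0.00012 or less for each of these 6, with Ly6c on 3 lungs, Slurp1 on 5 lungs and Spaca4 on 7 livers.

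Interferon-stimulated genes were counted because Ly6a and Ly6e belong to those that respond to interferon. Of 51 such genes on the array other than the 7 members, 0 were called in exposed lungs by limma and 4 reached an unadjusted p of 0.05, where 7.13% of all probes did. Their median difference was -0.01, with a range from -0.25 to 0.65. In exposed livers 0 of 51 were called and 4 reached an unadjusted p of 0.05, where 2.53% of all probes did, with a median of -0.12, against 0.00 over all probes, and 2 of 51 above 0, where 47.2% of all probes were. The 51 genes share each array and are not independent of each other. By mouse, the mean over the list spanned 0.50 to 0.88 in exposed and 0.58 to 0.93 in control livers, with overlap. A shift of the list as a whole was not tested.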

How the data were processed

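RNA from lung and liver was hybridized by the authors with universal reference RNA to Agilent 2-colour arrays without dye swap and scanned with Feature Extraction 9.5.3.1 (lung) or 10.1.1.1 (liver). The deposited scanner files give Cy5 and Cy3 intensity per spot, not normalized. The authors' table of log2 ratios, made with LOWESS, correlated with log2 ratios computed without background correction at r = 0.993 to 0.997 per array and served as an alternative, with its medians at -0.042 to -0.022. The study's methods state that outlying arrays were removed.

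Median intensities were background-corrected (normexp, offset 50) and loess-normalized within arrays with limma 3.58.1 in R 4.3.3. Spots marked as outliers were left out of the background fit and of the values. Fitted on all spots, the Cy5 background mean fell as low as -609 in lung and -972 in liver, against -8.4 to -4.1 without the marked spots. This choice was made with earlier results of these data known, as were the members and gene lists. Spots of 1 probe were averaged, and a linear model (lmFit, eBayes) compared the groups with Benjamini-Hochberg adjustment over all probes at 0.05, separately for lung exposure, liver exposure and control liver against control lung. The fit was tested on simulated data. Single probes were tested by two-sided exact permutation over arrays, which ignored the pairing of organs by mouse number. Correlations were tested by two-sided exact permutation of pairings (scipy 1.17.1). All differences, intervals and folds are on the offset scale. The number of arrays limits the precision.

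Named were all members, with the probe of highest mean signal standing for Ly6h, the 5 genes most like Ly6f by either measure, and of the family list the 2 widest differences in each direction in lung and up to 3 called ones in each direction elsewhere. Of each marker list only ranges, means by mouse and counts are given. Each array is 1 mouse by its label. Lung and liver mRNA arrays of 1 number were taken as the same animal, which pairs 6 control mice. Deviations from group means correlated at -0.055 to 0.20 within these pairs, and 4 of 6 lungs matched best with the liver of their number. Some numbers are exposed in the mRNA labels and control in the microRNA labels, so the pairing is an assumption. MicroRNA arrays hold no probe of these genes and were not used.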

Additional observations from a re-analysis of the deposited data

Results flagged for a closer look

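Ly6d in the liver of exposed mouse 13 stood apart from its group. Its log2 ratio was -0.13, and the nearest of the other 6 exposed livers was at -1.02, a gap of 0.64 of the whole range. Among 30 sets of values of a member in a group that were examined in this way it was the only one to stand out, while about 1 in 20 would by chance. Without any one liver the exposure difference of Ly6d ran from -0.21 to 0.06.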

How the results depend on the processing

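The number of Ly6 probes called in liver after exposure was 0 under all 9 alternatives run and without any single array, and the number called between control organs was 5 to 8 and 6 without any single array. With the mouse number as a replicate block, over the 6 control mice with both organs, 6 probes were called, as without the block, and the block changed no member's call. The lung difference of Ly6f was 1.55 with normexp fitted on all spots, 1.95 from the scanner's processed signals and 2.10 from the table of the authors, and 2.25 to 2.39 without single arrays. The cause was not tested. The filter on dim probes dropped Ly6h in lung, Ly6f in liver and the second Ly6h probe throughout. Signs changed for liver differences that were not called. These were Ly6f without background correction (-0.000135), Ly6d with median centering (0.086), with the authors' table (0.032) and with marked spots kept (0.0073), and with median centering the second Ly6h probe (-0.034) and Ly6i (0.056). Between organs they changed for Ly6e with median centering (0.087), for the second Ly6h probe with processed signals (0.21, called), and for Ly6k with the authors' table (0.020), marked spots kept (0.022) and slide as a random block (0.0013). Without single arrays, values spanned 0 in liver for Ly6d (-0.21 to 0.065), Ly6f (-0.0059 to 0.042), Ly6h (-0.021 to 0.041), its second probe (-0.014 to 0.016) and Ly6i (-0.064 to 0.0063), and between organs for the second Ly6h probe (-0.031 to 0.013) and Ly6k (-0.073 to 0.051). The correlation of Ly6f with Ly6a was 0.88 without background correction and 0.41 with median centering, neither passing adjustment, and 0.835 to 0.973 without single lungs. Correlations of Ly6f with normexp on all spots turned to 0.48 for Ly6d and 0.83 for Ly6k. With median centering they turned to 0.028 for Ly6d, 0.035 for Ly6h and 0.028 for Ly6k. That with Ly6i was 0.971 with normexp on all spots, where it passed, -0.12 with processed signals and -0.042 to 0.46 without single lungs. Over all probes, processed signals put the median of liver minus lung at 0.11, against 0.02. Calls over all probes in lung numbered 83, against 14 with normexp on all spots, 4 after median centering and 133 where slide was a random block. Signal near background limits Ly6f in liver and Ly6h in lung.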
